A study of Mus musculus with 2 samples.

Results

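The miRNAs described here are those of blood cells in general and of the myeloid branch in particular: mmu-miR-142a, mmu-miR-142b, mmu-miR-223 and mmu-miR-511 (mmu for mouse, left out below). Every probe carrying 1 of these 4 names was taken, whether the name ended there or went on with 5p or 3p, the arm of the precursor. This gave 7 of the 1900 mouse miRNA probes on the array: both arms of miR-142a, of miR-223 and of miR-511, and a single probe for miR-142b. The study compared germ-free mice, which harbour no microbes, with specific pathogen-free (SPF) mice, which have a normal gut flora. RNA came from mononuclear cells of the lamina propria, the connective tissue layer under the epithelium of the colon, of male Balb/c mice in both groups. Each group is 1 array, and neither the number of animals behind an array nor their age is given in the labels. There are thus no replicates and no p-values, and each difference describes these 2 arrays.

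A miRNA is cut from a hairpin precursor, and the strand kept in the silencing complex pairs with target messages mainly through its seed, bases 2 to 8 from the 5′ end. miR-142 is transcribed across the blood lineages, and both of its arms are used. miR-223 is switched on by the myeloid transcription factors PU.1 and C/EBP and is abundant in neutrophils and monocytes, where it limits the inflammasome sensor Nlrp3. miR-511 lies inside Mrc1, the gene of the mannose receptor CD206 on tissue macrophages and dendritic cells, and its 3p arm is the strand known to act in macrophages. In the colon, lamina propria macrophages renew from blood monocytes, and lymphocytes make up much of a mononuclear isolate.

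Mature sequences were found in RefSeq (GRCm38.p6) for 6 of the 7 arms. They are shown because the 7 probes differ in signal far more than the miRNAs differ between arrays, and the sequences show which probes could share a target. The seed is in capitals, and each line runs 5′ to 3′.
miR-142a-5p: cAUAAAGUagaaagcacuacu
miR-142a-3p: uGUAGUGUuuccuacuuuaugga
miR-142b: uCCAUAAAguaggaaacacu
miR-223-5p: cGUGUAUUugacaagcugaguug
miR-223-3p: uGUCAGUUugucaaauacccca
miR-511-3p: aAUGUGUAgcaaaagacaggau
The 6 seeds all differ. None of them was shared with another miRNA on the array, as far as array names could be matched to a RefSeq mature sequence (1623 of 1915 names).

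The hairpins of miR-142a and miR-142b are shown for their overlap, with the mature arms in capitals.
Mir142: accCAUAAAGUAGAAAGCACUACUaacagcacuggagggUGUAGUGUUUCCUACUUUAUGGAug
Mir142b: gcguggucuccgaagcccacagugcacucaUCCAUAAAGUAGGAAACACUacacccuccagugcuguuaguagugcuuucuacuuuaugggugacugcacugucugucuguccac
Mir142 lies on the forward strand of chromosome 11 at chr11:87756864-87756927 and Mir142b on the reverse strand at chr11:87756841-87756955, so the 2 hairpins come from the same DNA. All 20 bases of miR-142b are the exact reverse complement of a stretch of miR-142a-3p. Over an overlap of 18 bases miR-142b matches miR-142a-5p at 16, with the differences A11G and G14A, counted from the 5′ end of miR-142a-5p with its base first. In GENCODE M21 (GRCm38) Mir142 sits within the non-coding gene Mir142hg on the same strand, with 0 of its bases in an exon of that gene.

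The Mir223 and Mir511 hairpins are shown with the arms that have a RefSeq sequence in capitals.
Mir223: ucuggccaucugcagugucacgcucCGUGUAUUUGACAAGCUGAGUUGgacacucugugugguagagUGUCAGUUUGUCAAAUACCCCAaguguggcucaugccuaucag
Mir511: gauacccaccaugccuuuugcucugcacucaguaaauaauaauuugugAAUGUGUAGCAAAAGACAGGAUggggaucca
Mir223 lies on the forward strand at chrX:96242817-96242926, wholly within an exon of the non-coding gene F630028O10Rik. Mir511 lies on the forward strand at chr2:14261003-14261081 within Mrc1, with 0 of its bases in an Mrc1 exon, and is thus intronic.

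On both arrays the signal of these miRNAs came from 3 arms, miR-142a-5p, miR-142a-3p and miR-223-3p, and the other 4 lay under the level 2 SD above the mean of spots that carry no probe. With the blank spots as background, both miR-142a arms were lower in the SPF sample and miR-223-3p was higher. Each miRNA has 1 spot per array, and values are median spot intensities of the red-dye channel in arbitrary units. An intensity compares a probe between arrays. It does not compare molecule numbers between probes, which bind and label unequally.

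The array background was the mean of the blank spots, with 896 germ-free spots at 128.5 ± 4.53 (SD) and 895 SPF spots at 158.3 ± 5.33 (SD). Net intensity is the spot minus this mean, and the floor is 2 blank SD above it, a net value of 9.05 and 10.7. A stricter level, 2 SD above the mean of the 174 spots without a probe, is an intensity of 165.8 (germ-free) and 202.2 (SPF). Of the 7 arms 4 were above the floor in the germ-free sample, where 81% of all miRNA probes were, and 5 in the SPF sample, where 79.5% were. Above the stricter level on both arrays were 3 of the 7 arms, against 54.8% of all miRNA probes. No spot of these 7 was marked as faulty in the files.

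**Figure D1:**
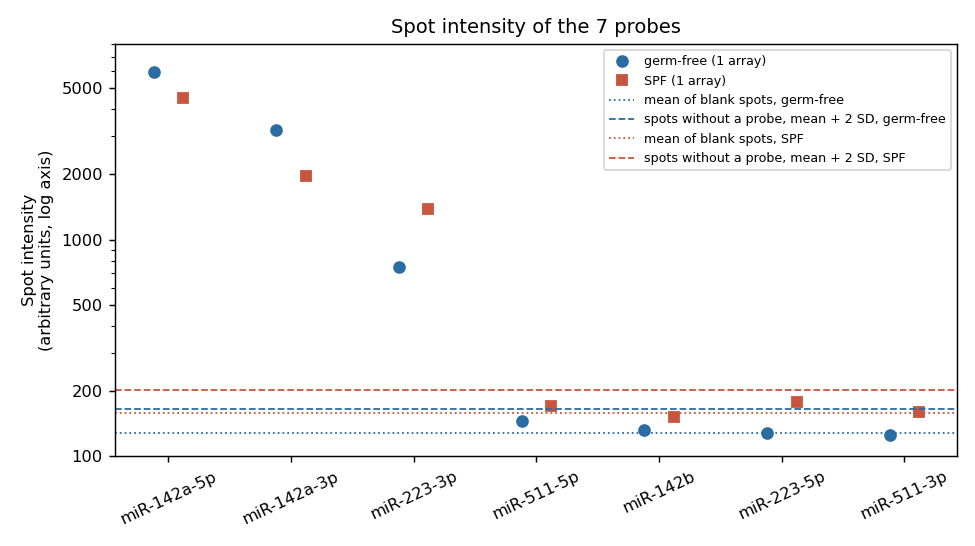
Spot intensity (log axis, arbitrary units) of the 7 probes in the germ-free sample (circles) and the SPF sample (squares), 1 spot each. Dotted lines mark the mean of the blank spots and dashed lines the level 2 SD above the mean of spots without a probe; miR-142a-5p, miR-142a-3p and miR-223-3p lie above the dashed lines and the other 4 probes under the dashed line of their own array.

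miR-142a-5p, the brightest of the 7, had an intensity of 5927 in the germ-free sample and 4493 in the SPF sample. It ranked 38th of 1900 miRNA probes in the germ-free sample and 67th in the SPF sample. For fold values, SPF net intensities were multiplied by 0.849, which sets the medians equal over the 1471 shared miRNAs, those above both floors. On that scale the net intensity of miR-142a-5p was 5799 against 3681, or 1.58-fold lower in the SPF sample (log2 -0.66, technical SD 0.13). The technical SD is the spread of a difference between 2 single spots, taken from 5 bright control probes with 8 spots per array. It holds no variation between animals, extractions or labellings.

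miR-142a-3p, the other arm of the same hairpin, had an intensity of 3210 in the germ-free sample and 1965 in the SPF sample, and went from rank 80 to rank 131. Its scaled net intensity was 3081 against 1534, or 2.01-fold lower in the SPF sample (log2 -1.01, technical SD 0.13). Above the floor on both arrays were 4 of the 7 arms, against 77.4% of all miRNA probes. Of these 4, miR-142a-3p was the only one at least 2-fold lower, where 1.43% of the 1471 shared miRNAs were, and it lay at the threshold itself. None of the 4 was at least 2-fold higher, where 1.56% of the shared miRNAs were. In order of log2 value miR-142a-3p was 21st from the lowest of the 1471, and miR-142a-5p was 87th.

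The 3p arm of miR-142a was 53.1% as bright as the 5p arm in the germ-free sample and 41.7% in the SPF sample. The arms thus differed by 0.35 in log2 SPF over germ-free, against a technical SD of 0.18 for a difference of this kind. Among 465 precursors with both arms above the floor on both arrays, the median absolute difference between arms was 0.25, and 36.3% had a larger one than miR-142a. The gap between the miR-142a arms was within the range of the middle 50% of precursors, 0.12 to 0.46. The log2 change of the 3p to 5p ratio was -0.35 here, -0.49 with block medians removed and -0.87 with the local background of each spot subtracted.

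miR-142b, from the opposite strand, had an intensity of 132.2 in the germ-free sample and 151.2 in the SPF sample, under the floor of each array. Of the 174 spots without a probe, 154 were brighter in the germ-free sample and 174 in the SPF sample. Its probe gave this signal on arrays where miR-142a-5p, alike at 16 of 18 aligned bases, was near the top. The probes for miR-3964 and miR-3969, each matching miR-142a-5p at 17 of its 21 bases without gaps, read 170.1 and 158.1 in the germ-free sample and 171.6 and 178.6 in the SPF sample. As scaled net intensity, miR-3964 went from 41.5 in the germ-free sample to 11.3 in the SPF sample (log2 -1.88). miR-3969 went from 29.5 to 17.2 (log2 -0.78). Both were thus dim and lower in net intensity in the SPF sample, the direction of miR-142a-5p. In the SPF sample both were under the level of spots without a probe, 202.2. miR-3969 was also under it in the germ-free sample, where it is 165.8. The 2 directions thus rest on signals near the background. Whether these probes take up miR-142a-5p was not tested. For miR-142a-3p the closest array sequences matched at 13 of 23 bases and for miR-223-3p at 12 of 22.

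miR-223-3p, the main arm of the myeloid miR-223, had an intensity of 750.9 in the germ-free sample and 1383 in the SPF sample, the opposite order to both miR-142a arms. It went from rank 247 to rank 177 of 1900. Its scaled net intensity was 622.3 against 1040, or 1.67-fold higher in the SPF sample (log2 0.74, technical SD 0.13), which placed it 42nd from the highest of the 1471 shared miRNAs. In a bulk sample like this one, more cells of a type and more of the miRNA per cell cannot be told apart.

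miR-223-5p, the lesser arm, had an intensity of 127.5 in the germ-free sample, under the blank mean, and 177.4 in the SPF sample. Only the SPF value was above the floor, so the log2 of 0.84 is a lower bound against the germ-free floor (technical SD 0.84). On the SPF array 55 of the 174 spots without a probe were brighter. The 2 values have the same order as the 3p arm, but the technical SD is as large as the bound.

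**Figure D2:**
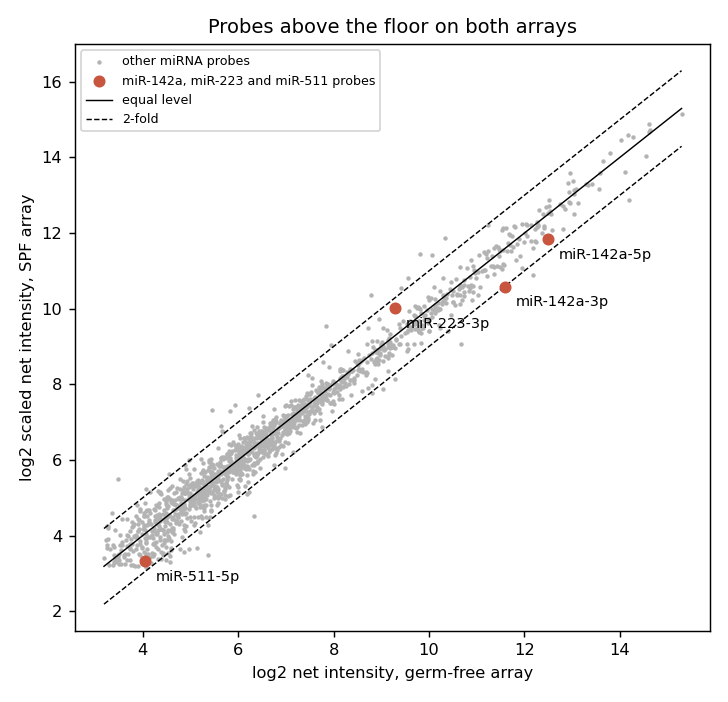
Log2 net intensity in the germ-free sample (x) against scaled log2 net intensity in the SPF sample (y) for the 1471 miRNA probes above the floor on both, with the 4 arms described here that reach it in red. The dashed lines mark 2-fold. miR-142a-5p, miR-142a-3p and miR-511-5p lie under the line of equal level, with miR-142a-3p on the 2-fold line. miR-223-3p lies above the line of equal level and within 2-fold.

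miR-511-5p had an intensity of 145.1 in the germ-free sample and 170.2 in the SPF sample, a net 16.5 against a scaled 10.1. The log2 value of -0.72 has a technical SD of 0.77 once the spread of blank spots is included, so the 2 values do not differ beyond it. Spots without a probe were brighter in 65 of 174 cases in the germ-free sample and 118 in the SPF sample. miR-511-3p had an intensity of 125.3 in the germ-free sample and 160.4 in the SPF sample, under the floor on both, and takes no fold. The macrophage miRNA of the Mrc1 intron was thus not detectable above spots without a probe in either arm. Its absence from these cells does not follow, since the floor sets what 1 spot can show.

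Setting miR-223-3p against miR-142a on the same array removes any scaling of a whole array by 1 factor. The net intensity of miR-223-3p was 10.7% of that of miR-142a-5p in the germ-free sample and 28.2% in the SPF sample, a 2.63-fold larger ratio (log2 1.40, technical SD 0.18). Against miR-142a-3p it was 20.2% and 67.7%, a 3.35-fold larger ratio (log2 1.75, technical SD 0.18). The myeloid miRNA thus stood higher relative to the general blood-cell miRNA in the SPF sample than in the germ-free sample. With the blank background, the change was larger than the spread of repeated spots.

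The direction of miR-142a-5p depended on the background that was subtracted. The files give a local background around each spot, and at miR-142a-5p it was 5444 in the germ-free sample and 3577 in the SPF sample, or 91.9% and 79.6% of the spot itself. With it subtracted, miR-142a-5p was at a log2 of 0.45, higher in the SPF sample. miR-142a-3p, whose local background was 61.8% and 35.2% of the spot, was at -0.42, and miR-223-3p, at 75.5% and 39.5%, was at 1.71. The log2 change of the ratio of miR-223-3p to miR-142a-5p was then 1.26, against 1.40 with the blank background, and that of its ratio to miR-142a-3p was 2.13, against 1.75.

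These local backgrounds were not shared by all of the adjacent spots. Of the 5 spots next to miR-142a-5p, the dimmest, miR-509-3p, read 124.7 in the germ-free sample and 159.3 in the SPF sample, with local backgrounds of 97.7 and 117.6. Next to miR-142a-3p the dimmest, miR-144-3p, read 181.7 and 194.9, with local backgrounds of 128.8 and 149.4. The brightest neighbours outshone both arms: miR-709 beside miR-142a-5p read 7980 and 8661, and miR-711 beside miR-142a-3p read 8077 and 14692. All 5 neighbours of miR-223-3p were dim, at most 261.3 on each array, while its own local background was 567.1 and 545.8. The source of the local backgrounds was not tested. The log2 values of repeated control spots had an SD of 0.0908 with the blank background and 1.30 with the local one. With the local background, the change of the ratio of miR-223-3p to miR-142a-5p, 1.26, was smaller than this SD of a single spot. miR-142a-5p, at 0.45, and miR-142a-3p, at -0.42, were also smaller than it in size. The change of the ratio of miR-223-3p to miR-142a-3p was 2.13. A ratio change rests on several spots, so its spread is wider than the SD of a single spot. With the local background, neither ratio change can be called larger than the spread of repeated spots.

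**Figure D3:**
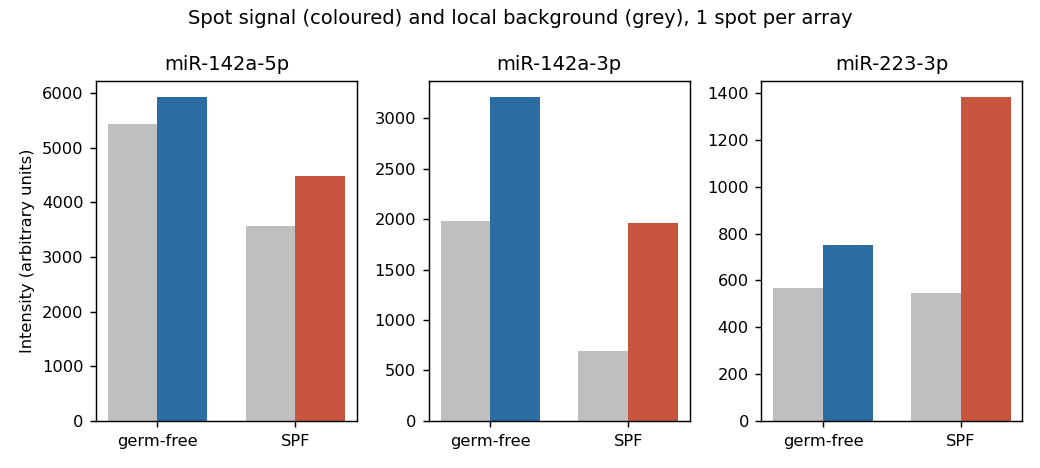
Spot intensity (coloured bars) and local background (grey bars) at the 3 bright arms, in arbitrary units from 0,, 1 spot for each sample. The grey bar is 91.9% of the spot for miR-142a-5p in the germ-free sample and 35.2% for miR-142a-3p in the SPF sample, so the share differs between arms and arrays.

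Across 12 other ways of processing without the local background, miR-142a-5p ran from -0.79 to -0.42, miR-142a-3p from -1.22 to -0.77 and miR-223-3p from 0.61 to 0.98. The 3 arms kept their directions in all 12. Over the same 12 the log2 change of the ratio of miR-223-3p to miR-142a-5p ran from 1.28 to 1.64, and that of its ratio to miR-142a-3p from 1.59 to 2.13. Scaling an array by 1 factor or moving only the floor cannot change a ratio within an array. Several of the 12 could thus only return 1.40 and 1.75, and the ranges rest on the other settings. Whether miR-142a-3p passed 2-fold did depend on the processing: it did so with scaling on control probes, with block medians removed and with a pseudocount, and fell short in the other 9. The median of all shared miRNAs was -0.06 as scaled here and ran from -0.19 with scaling on control probes to 0.18 with no scaling.

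**Figure D4:**
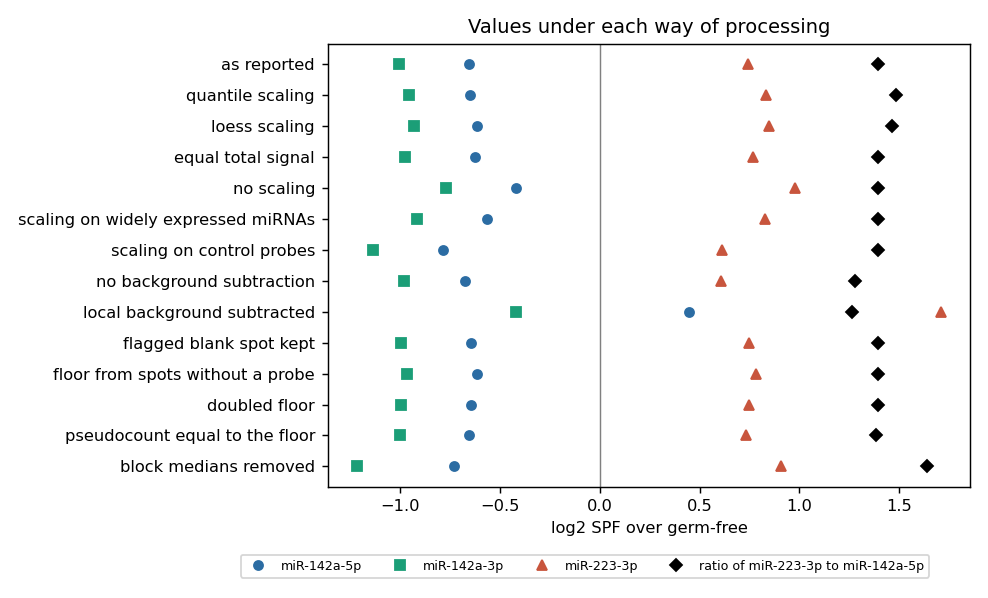
Log2 SPF over germ-free (x) of miR-142a-5p, miR-142a-3p and miR-223-3p, and of the ratio of miR-223-3p to miR-142a-5p, under each way of processing (rows). miR-142a-5p crosses 0 with the local background subtracted, at 0.45. The ratio stays between 1.26 and 1.64, and scaling an array by 1 factor or moving only the floor cannot change it.

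Other miRNAs of leukocytes were counted from lists, using the brighter arm of each precursor to stand for it. Probe brightness does not rank arms by abundance and the other arm can differ, so medians over all arms above both floors, a choice made after seeing the data, are given too. Of 13 further miRNAs linked to myeloid cells, all above the floor on both arrays, 10 were above 0 and 3 under it, with a median log2 of 0.11 and 0 of 13 past 2-fold in either direction. Its 3 brightest were miR-24-3p at 0.03 and miR-23a-3p at 0.35, of a cluster that PU.1 induces, and miR-21a-5p, induced in activated macrophages, at 0.96. The summed scaled net intensity of the list was 18026 in the germ-free sample and 22237 in the SPF sample. Like miR-223-3p, all 13 were within 2-fold, and the list holds some miRNAs that other cell types also express. The list median was 0.11 against -0.06 over all shared miRNAs, most of which were thus under 0. The list median was 0.19 over all 23 arms and 0.35 with no scaling. With the local background it was 0.36, over the 10 members that then had a value. With scaling on control probes it was -0.02, and 6 of the 13 were above 0 and 7 under it.

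The lymphocyte list had the opposite sign, with 6 of 7 under 0, a median of -0.58 and 1 of 7 at least 2-fold lower. Its 3 brightest were miR-150-5p, which restrains Myb in mature lymphocytes, at -1.31, miR-342-3p at -0.59 and miR-181a-5p, which sets the sensitivity of T cell receptor signalling, at -0.73. The median over all 11 arms was -0.45. The summed net intensity of this list was 21365 in the germ-free sample and 9396 in the SPF sample, most of it from miR-150-5p; without it the sum of the other 6 was 2666 against 1844. Both miR-142a arms had the sign of this list, and miR-223-3p did not. That sign was not particular to lymphocyte miRNAs, since the median of all shared miRNAs, -0.06, was also under 0. With the local background subtracted the list median was 0.59 over the 4 members that then had a value, so its sign, like that of miR-142a-5p, depended on the background. All 4 erythroid miRNAs were under 0, with a median of -0.46, also over all 6 arms, and their sum was 7920 against 6297. Their median was -0.23 with no scaling and -0.27 with the local background, where 1 of the 4 was above 0. With the blank background miR-451a was at -0.27, miR-486b-3p at -0.45 and miR-486a-3p at -0.48. miR-155-5p, at -0.36, is in both the myeloid and the lymphocyte list.

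Of cells outside the blood lineages, epithelial markers were higher in the SPF sample and stromal, endothelial and muscle markers were near 0. Of 10 epithelial miRNAs 9 were at least 2-fold higher in the SPF sample, with a median of 1.21 (1.09 over all 17 arms, and 0.69 over 7 members with the local background) and a summed net intensity of 5727 against 14820. The brightest were miR-200b-3p at 1.53, miR-194-5p at 1.36 and miR-192-5p at 1.62, and all 10 were above the level of spots without a probe on both arrays. Of 7 stromal, endothelial and muscle miRNAs 6 were above the floor on both arrays, with a median of 0.03 (0.01 over all 9 arms, -0.10 with scaling on control probes and -0.22 with the local background) and a sum of 1338 against 1260; miR-214-3p was at -0.34, the shared probe of miR-199a-3p and miR-199b-3p at 0.01 and miR-143-5p at -0.01, with its other arm miR-143-3p at 0.45, while miR-1a-3p did not reach the floor on both. The part of the epithelial signal in the values of miR-142a and miR-223 was not tested.

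**Figure D5:**
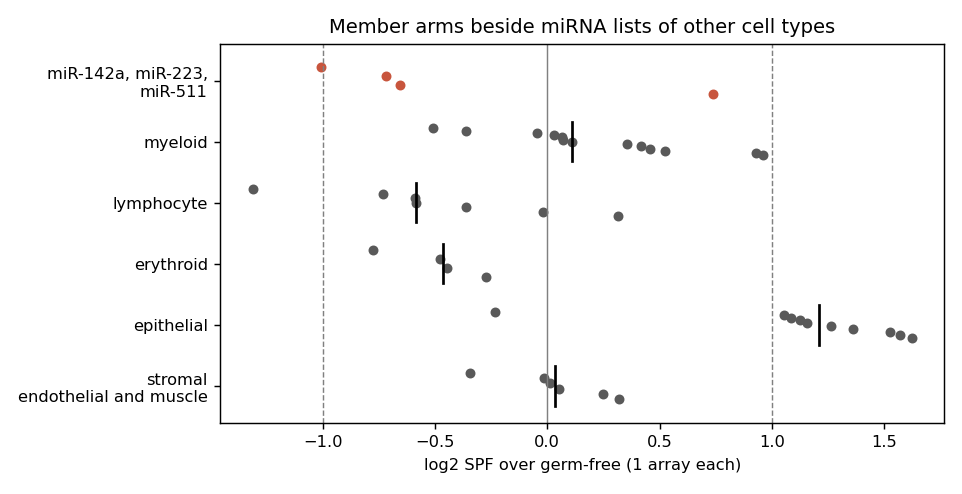
Log2 SPF over germ-free (x) for the 4 arms of miR-142a, miR-223 and miR-511 above the floor on both arrays (red) and for 5 lists (grey points, 1 per miRNA, with a bar at the median). The 3 red points under 0 lie within the range of the lymphocyte values and miR-223-3p lies among the upper myeloid values; 9 of 10 epithelial points lie beyond the 2-fold line.

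The probes nearest to each arm in level on both arrays were found by Euclidean distance in log2 net intensity, over 2 arrays only. For miR-142a-5p they were let-7g-5p (distance 0.09), miR-6981-5p (0.20) and miR-26a-5p (0.25), at log2 values of -0.54, -0.38 and -0.49. For miR-142a-3p the nearest, miR-30b-5p, let-7i-5p and miR-26b-5p, were at distances of 0.41, 0.47 and 0.47 and at log2 values of -0.44, -0.35 and -0.48. For miR-223-3p they were miR-7015-5p, miR-6385 and miR-680, at distances of 0.32, 0.39 and 0.43 and log2 values of 0.35, 0.22 and 0.36. For the dim miR-511-5p they were miR-1933-5p, miR-3087-3p and miR-7233-5p at 0.03, 0.08 and 0.13, probes at the same low signal. Of the brighter arms, miR-142a-5p thus had close neighbours in level, while miR-142a-3p and miR-223-3p stood further from any other probe.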

How the data were processed

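Per the file headers, the deposited values are median spot intensities and median local background intensities of 1 colour channel, from scans at 3 gains, for 3200 spots in 32 blocks. Per the labels' protocols, total RNA came from a Qiagen column kit and the Hy5 dye from an Exiqon labelling kit. Platform and scanner are not named in the labels or headers. The number of arrays limits the precision.

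Net intensities, the floor, the scaling and the log2 values were computed as stated beside the results (Python 3.11.15, pandas 2.3.3, statsmodels 0.14.6), and tested on simulated arrays with known changes. A blank spot marked NG on the SPF array was left out of the background. With 1 array per group no test was run. A value under the floor on 1 array was set to the floor. Technical SDs combine the spread of repeated control spots with that of blank spots. The miRNAs named are the 7 arms, the 3 probes nearest to each and the 3 brightest of each list; miRNAs next to an arm on the slide or close to it in sequence were named after their values were seen. Members and lists were chosen with earlier results of these data known. Alternatives were other scalings, backgrounds, floors and fold thresholds, a pseudocount and a correction by block.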

Additional observations from a re-analysis of the deposited data

How the results depend on the processing

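Over 13 alternatives in scaling, background, floor, pseudocount and block correction, 1 value among the 7 arms and their ratios turned its direction: with the local background subtracted miR-142a-5p was at 0.45. The ratios could not change under scaling by 1 factor or a moved floor. Of the list medians, the myeloid and the stromal one turned with scaling on control probes, and the lymphocyte and the stromal one with the local background. The cause was not tested. The number of the 7 arms at least 2-fold lower in SPF was 1 as reported and with scaling on control probes, a pseudocount or block medians removed. It was 0 with quantile scaling, loess scaling (span 0.4), equal total signal, no scaling, scaling on widely expressed miRNAs, no background subtraction, local background, the flagged blank spot kept, a floor taken from the no-probe spots, a doubled floor or a 3-fold threshold. With a 1.5-fold threshold 3 arms were lower and 1 higher, against 112 and 68 of the 1471 shared miRNAs. The 3 include the dim miR-511-5p, at -0.72 with a technical SD of 0.77. With the local background 1 arm was at least 2-fold higher, against 97 of the 1436 miRNAs then shared. With the no-probe floor or a doubled floor, 3 arms were above the floor on each array, against 4 and 5, and no value could be given for miR-223-5p or miR-511-5p.

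Of the 1471 shared miRNA probes 23 were at least 2-fold higher and 21 lower. These counts were 39 and 9 with no scaling, 15 and 36 with scaling on control probes, 6 and 3 with no background subtraction, 97 and 51 (of 1436) with local background, 15 and 10 with a pseudocount, 68 and 112 at 1.5-fold and 4 and 3 at 3-fold. The lower count was 6 of 1041 with the no-probe floor and 11 of 1291 with a doubled floor. Without background subtraction miR-511-5p was at -0.05 and the bound of miR-223-5p at 0.09, so for these 2 arms the size rests on the blank mean. No paired analysis was possible because each group is 1 array.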
